A study of Mus musculus with 6 samples.

Results

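The genes described here are 10 markers of cardiac macrophages, chosen by name, out of 16018 genes listed by RNAseq of whole mouse hearts: *Csf1r*, *Adgre1*, *Cd68*, *C1qa*, *C1qb*, *C1qc*, *Mrc1*, *Cd163*, *Lyve1* and *Ccr2*. The hearts came from 3 female NBCe1-B/C KO (KOb/c) mice and 3 female WT mice, aged 4 to 5 weeks. Both genotypes were on a C57BL/6J background and were offspring of heterozygous parents. The deletion is congenital and global, so it is carried by macrophages as well as by heart muscle cells, and it leaves the kidney variant NBCe1-A in place. The labels give the tissue as heart and do not name a chamber. They number the 6 animals separately and give no batch, so the p-values below measure the spread between these animals.

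Macrophages are phagocytic cells of the immune system, and the heart holds a resident population that renews itself locally and clears debris from heart muscle cells. Their survival depends on the growth factor receptor CSF1R. Many resident cardiac macrophages carry the scavenger and endocytic receptors CD163, the mannose receptor MRC1 and the hyaluronan receptor LYVE1, whereas monocytes newly arrived from blood carry the chemokine receptor CCR2. Tissue macrophages are also a main source of C1q, the recognition molecule of the classical complement pathway, which is assembled from the products of *C1qa*, *C1qb* and *C1qc*. The comparison of KOb/c with WT hearts asks whether these transcripts differ when NBCe1-B and NBCe1-C are lost.

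Of the 10 genes, 6 had an upstream sequence in the promoter table of RefSeq (GRCm38.p6). The 250 bases before the RefSeq start are printed for the pair of C1q genes found there and for *Mrc1*. As deposited, the values of the C1q pair lay lower in all KOb/c hearts than in all WT hearts, and those of *Mrc1* overlapped. None of these genes passed the main test after adjustment over all genes. After the correction for length and GC content described below, the C1q pair overlapped as well. Capitals mark GAGGAA on the printed strand or TTCCTC, its form on the opposite strand. GAGGAA is the core that PU.1, the lineage transcription factor of macrophages encoded by *Spi1*, recognises.
C1qb, chr4:136886201-136886450, minus strand: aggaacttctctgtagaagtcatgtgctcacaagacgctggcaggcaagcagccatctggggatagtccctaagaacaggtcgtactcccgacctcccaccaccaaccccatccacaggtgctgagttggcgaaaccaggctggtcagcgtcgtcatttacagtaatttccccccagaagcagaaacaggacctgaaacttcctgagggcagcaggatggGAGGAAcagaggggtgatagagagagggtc
C1qc, chr4:136892915-136893164, minus strand: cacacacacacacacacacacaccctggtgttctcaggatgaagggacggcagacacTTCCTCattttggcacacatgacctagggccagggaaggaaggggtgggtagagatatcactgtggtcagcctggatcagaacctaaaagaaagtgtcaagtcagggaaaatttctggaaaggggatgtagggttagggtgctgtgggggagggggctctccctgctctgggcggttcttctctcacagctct
Mrc1, chr2:14229164-14229413, plus strand: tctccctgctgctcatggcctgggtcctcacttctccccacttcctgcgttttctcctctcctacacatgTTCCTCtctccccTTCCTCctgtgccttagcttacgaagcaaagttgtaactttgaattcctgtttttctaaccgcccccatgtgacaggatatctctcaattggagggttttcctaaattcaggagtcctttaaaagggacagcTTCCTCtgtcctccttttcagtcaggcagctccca

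Positions of motifs are counted back from the RefSeq start of transcription. For *C1qc*, *Mrc1* and *Ccr2* that start lies inside the span that the GENCODE annotation gives the gene. Most of the windows of *C1qc* and *Ccr2*, and part of that of *Mrc1*, thus fall within that span. GAGGAA began at -30 in *C1qb* on the printed strand and at -193 in *C1qc* on the opposite strand. *Mrc1* held 3 copies on the opposite strand, at -180, -167 and -35, and *Cd68* held 1 at -225. No copy was in the windows of *Cd163* and *Ccr2*. Among all 32851 RefSeq windows of this length, 23.3% held GAGGAA on either strand. Of 3 other motifs searched on both strands, the AP-1 motif TGANTCA, in which N is any base, matched *Cd68* at -149 and -24. It was held by 6.75% of all windows. The interferon-stimulated response element (2.98% of windows) and the MAF half-site TGCTGAC (3.81%) matched none of the 6 windows. A match is a run of letters and not a measured binding site.

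The targeted gene was examined first. *Slc4a4*, which encodes NBCe1, was at 264, 945 and 269 normalized counts in KOb/c replicates 1, 2 and 3, and at 675, 822 and 789 in the WT hearts. With its value above every WT value, the library labelled KOb/c replicate 2 goes against its label, so the results for the 10 genes and for the lists of other macrophage genes are also given without it. Normalized counts are reads on a gene divided by the authors' size factor for the library. Between 41364857 and 49100802 reads fell on genes in each library, and each KOb/c library was deeper than each WT library. For the macrophage genes this gave 85 to 193 reads per library for *Ccr2* and at least 251 for the other 9. The counting error at the lowest count of a gene was 10.8% for *Ccr2* and between 2.23% and 6.31% for the others, in each case counting error only.

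Levels can be set against each other only per length, and are given here as normalized counts per kilobase of the longest annotated transcript. The transcripts of C1q were the most abundant of the 10 in WT hearts, with means of 2111 ± 115 (SD, n = 3) for *C1qa*, 1828 ± 112 for *C1qb* and 1464 ± 124 for *C1qc*. *Csf1r* followed at 472 ± 23.3. *Mrc1* at 261 ± 37.9, *Cd68* at 258 ± 19.4 and *Lyve1* at 248 ± 22.8 came next, and in WT hearts the libraries of *Cd68* overlapped those of both *Mrc1* and *Lyve1*. *Adgre1* was at 194 ± 5.78 and *Cd163* at 156 ± 17.6. *Ccr2* was the lowest, at 23.9 ± 8.39 per kilobase, and no WT library of it reached the level of the next gene up. In KOb/c hearts C1q was again on top and *Ccr2* again at the bottom. There, the order between was *Csf1r*, *Mrc1*, *Lyve1*, *Cd68*, *Cd163* and *Adgre1*. The libraries of *C1qb* and *C1qc* overlapped, as did those of each pair of neighbours from *Mrc1* down to *Adgre1*. The order of these neighbours is thus not fixed beyond the spread. Genes further apart could still be told apart, as *Mrc1* did not overlap *Cd68*, *Cd163* or *Adgre1*, and *Lyve1* did not overlap *Adgre1*. All 10 markers were detected in all 6 hearts.

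**Figure D1:**
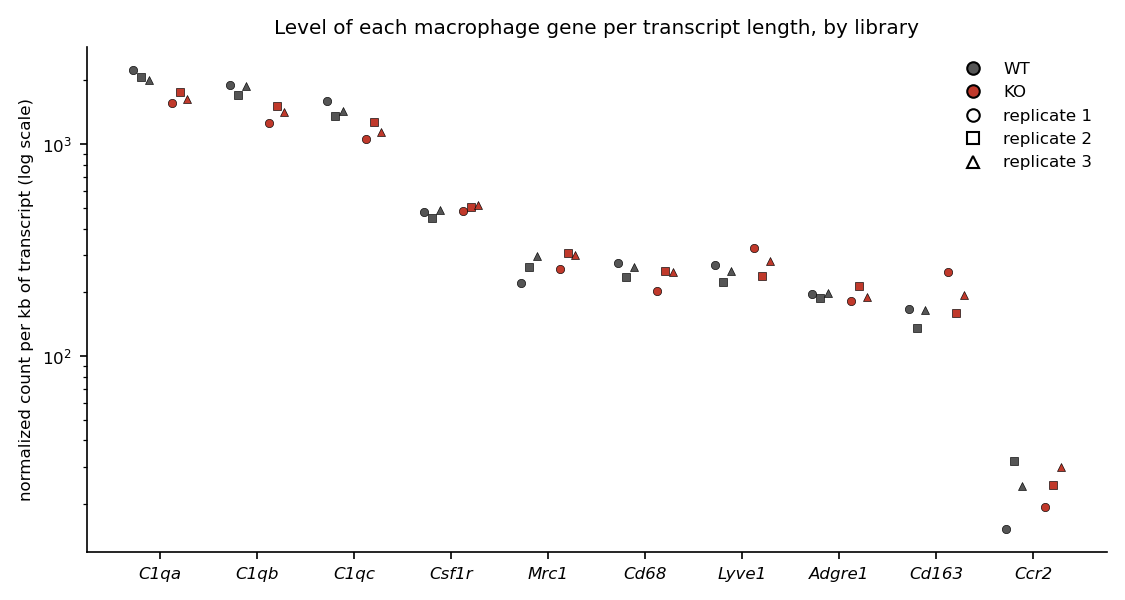
Level of each macrophage gene in every library, as normalized counts per kilobase of transcript on a log scale, in grey for WT and red for KOb/c. The C1q genes stand highest and *Ccr2* lowest in both genotypes, and the KOb/c points of C1q lie below the WT points.

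The C1q genes were the members whose groups did not overlap. *C1qa* was at 1624, 1835 and 1696 normalized counts in KOb/c replicates 1 to 3 and at 2329.5, 2157 and 2098 in WT replicates 1 to 3. *C1qb* was at 1372, 1649.9 and 1552 in KOb/c and at 2071, 1848 and 2047 in WT hearts. *C1qc* was at 1273, 1529 and 1376 in KOb/c and at 1925, 1633 and 1725 in WT hearts. For each of these genes, all KOb/c hearts lay below all WT hearts. Within KOb/c, replicate 2 was the highest and replicate 1 the lowest for all C1q genes.

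The KOb/c mean of *C1qa* was 0.783 times the WT mean, with a log2 fold change (KOb/c minus WT, on log2(normalized count + 1)) of -0.35 ± 0.074 (SE) and a 95% confidence interval from -0.52 to -0.19. For *C1qb* the ratio of the means was 0.767 and the log2 fold change -0.39 ± 0.087, with an interval from -0.58 to -0.19. For *C1qc* these were 0.791 and -0.34 ± 0.092, with an interval from -0.55 to -0.13. None of these passed the threshold of 0.05 after adjustment over all 16016 genes tested with limma, where the adjusted p was 0.0815, 0.0815 and 0.0933. edgeR on the recovered reads gave 0.0805, 0.0805 and 0.0919. DESeq2 on the same reads called all 3 lower, at an adjusted p of 0.0040, 0.0049 and 0.0197. The exact permutation test of each gene gave p = 0.1, the smallest that 3 against 3 hearts allow. Without the library labelled KOb/c replicate 2, the log2 fold changes were -0.40, -0.44 and -0.41, at an adjusted p (limma) of 0.128 for each. In whole-heart RNA, fewer macrophages and less C1q RNA per macrophage cannot be told apart.

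These differences must be read beside transcript length. The longer the transcript, the higher the log2 fold change tended to be (Spearman rho 0.45 over genes, which do not count as independent replicates). The C1q transcripts are short, at 1040, 1088 and 1203 nucleotides, and the other short member is *Cd68*, at 1230. A correction that removed from each library its smooth dependence on length and GC content left a rho of 0.03. After it, the log2 fold changes were -0.16 ± 0.069 for *C1qa*, -0.20 ± 0.076 for *C1qb* and -0.16 ± 0.083 for *C1qc*, with an adjusted p (limma) of 0.334, 0.299 and 0.409. The KOb/c hearts still lay below all WT hearts for *C1qa*, while the groups overlapped for *C1qb* and *C1qc*. When single libraries were left out, the corrected values kept their sign, between -0.25 and -0.11. DESeq2 with the same correction, added after the data had been seen, called none of the C1q genes, at an adjusted p of 0.374, 0.279 and 0.469.

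**Figure D2:**
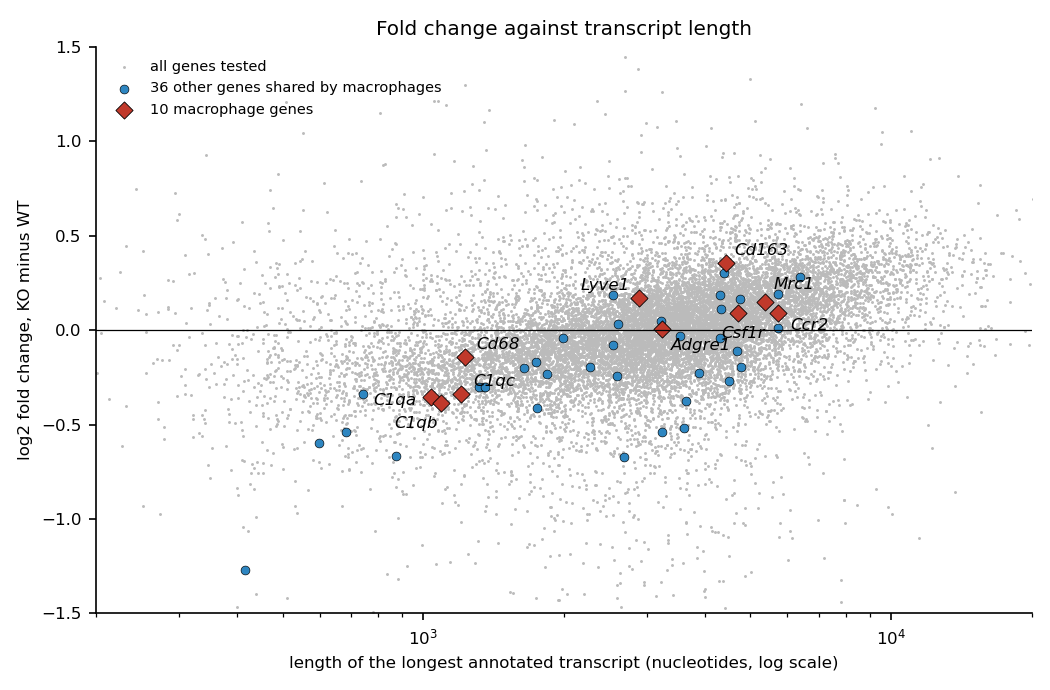
Log2 fold change (KOb/c minus WT) against the length of the longest annotated transcript on a log scale, for all genes tested in grey, 36 other genes shared by macrophages in blue and the 10 macrophage genes as red diamonds. Short transcripts lie lower, and the C1q genes are at the short end. A total of 150 tested genes lie outside the axes or have no length.

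The C1q genes lie side by side on chromosome 4 (GRCm38, GENCODE M21, as for all positions below), all on the minus strand. *C1qb* is at chr4:136880129-136886187, *C1qc* at chr4:136889804-136893065 and *C1qa* at chr4:136895917-136898803. Their proportions were steady. Of the summed C1q level per kilobase, *C1qa* made up between 37.8% and 40.4% in the 6 hearts, *C1qb* between 32.5% and 35.3%, and *C1qc* between 26.5% and 27.9%. The ratio of *C1qa* to *C1qb* counts differed between genotypes by 0.03 on the log2 scale (exact permutation p = 0.7), and that of *C1qc* to *C1qb* by 0.05 (exact permutation p = 0.4). The nearest genes tested within 200000 bases of the cluster were *Ephb2*, a receptor tyrosine kinase, and *Zbtb40*, a zinc finger gene, both chosen after their values were seen. Their groups overlapped, with log2 fold changes of -0.17 ± 0.27 and 0.01 ± 0.11.

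The general macrophage markers overlapped between the genotypes. *Csf1r*, the receptor on which macrophage survival depends, was at 2279.7, 2373 and 2423 normalized counts in KOb/c and at 2255, 2097 and 2307 in WT hearts. Its log2 fold change was 0.09 ± 0.065, with a 95% interval from -0.06 to 0.24 and an adjusted p (limma) of 0.449, and 0.08 without the library labelled KOb/c replicate 2. The 3′ end of *Csf1r*, on the plus strand of chromosome 18, overlaps *Hmgxb3* on the other strand. The counting rule for strand is not given in the sources used here, so some of its reads may belong to that neighbour. *Adgre1*, which encodes the surface protein F4/80 used to identify mouse macrophages, was at 592, 692 and 615 in KOb/c and at 637, 607 and 641 in WT hearts. Its log2 fold change was 0.01 ± 0.088 (adjusted p 0.976, limma), a direction that turned to -0.07 when the libraries were rescaled to the same total and to -0.06 without the library labelled KOb/c replicate 2. *Cd68*, a protein of lysosomal membranes, was at 249, 309 and 308 in KOb/c and at 337, 291 and 325 in WT hearts. The log2 fold change of *Cd68* was -0.14 ± 0.12 (adjusted p 0.530, limma), with -0.19 without the library labelled KOb/c replicate 2 and 0.02 after the correction for length and GC content. None of these markers separated the genotypes. *Adgre1* lies at chr17:57358691-57483527 (plus strand) and *Cd68* at chr11:69664213-69666153 (minus strand).

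**Figure D3:**
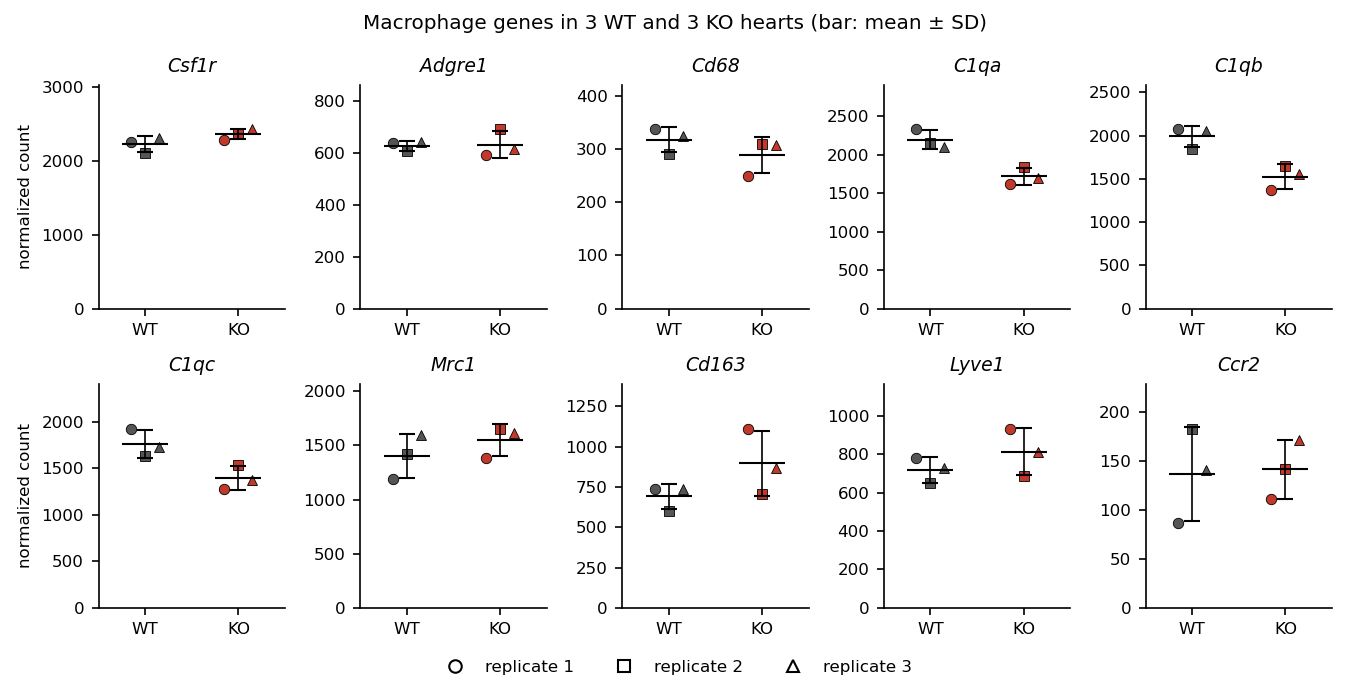
Normalized counts of the 10 macrophage genes in 3 WT (grey) and 3 KOb/c (red) hearts, with the mean and SD of each group as bars and the replicate number as the symbol. The groups are separate for *C1qa*, *C1qb* and *C1qc* and overlap for the other 7 genes.

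The scavenger and endocytic receptors of resident macrophages had positive estimates, none of which passed the test. *Mrc1*, the mannose receptor, was at 1382, 1655 and 1615 normalized counts in KOb/c and at 1191, 1419 and 1598 in WT hearts. *Cd163*, which takes up haemoglobin bound to haptoglobin, was at 1112, 709 and 866 in KOb/c and at 739, 602 and 736 in WT hearts. *Lyve1*, which binds hyaluronan and is also made by lymphatic endothelium, was at 933, 688 and 813 in KOb/c and at 779, 648 and 728 in WT hearts. KOb/c replicate 1 was the highest of the 6 hearts for *Cd163* and *Lyve1*, and the groups overlapped for all of these receptors. The genes lie apart in the genome, *Mrc1* at chr2:14229392-14332057 (plus strand), *Cd163* at chr6:124304656-124330527 (plus strand) and *Lyve1* at chr7:110850607-110863239 (minus strand).

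The log2 fold change was 0.15 ± 0.12 for *Mrc1* (adjusted p 0.473, limma), 0.35 ± 0.16 for *Cd163* (adjusted p 0.222) and 0.17 ± 0.12 for *Lyve1* (adjusted p 0.439). After the correction for length and GC content these were 0.05, 0.29 and 0.21. The estimate for *Cd163* has a 95% interval from -0.01 to 0.72 and rests in part on single hearts: it was 0.19 without KOb/c replicate 1 and 0.51 without the library labelled KOb/c replicate 2, at an adjusted p (limma) of 0.136 in the latter case. For *Lyve1* the same omissions gave 0.06 and 0.28. *Mrc1* had 0.10 without the library labelled KOb/c replicate 2, and omissions of single hearts moved it between 0.04 and 0.25. *Lyve1*, whose groups overlapped, stands beside markers of lymphatic endothelium whose sum did not overlap between the genotypes. The summed normalized counts of 6 such genes were between 5894 and 6676 in KOb/c and between 4073 and 5165 in WT hearts. That sum is not corrected for length, and the median transcript length of these genes was long, at 5366 nucleotides. limma called 0 of these 6 genes. At an unadjusted p under 0.05, 3 were higher, against 13% of all genes, and 2 after the correction, against 7.75%. The 3 were *Reln* (log2 fold change 0.78), the lymphatic transcription factor *Prox1* (0.53) and the growth factor receptor *Flt4* (0.26). *Prox1* is also made by heart muscle cells. The part of lymphatic vessels in the level of *Lyve1* was not tested.

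*Ccr2*, which draws monocytes out of bone marrow and into tissue, was at 111, 142 and 171 normalized counts in KOb/c and at 87.1, 183 and 140.2 in WT hearts. WT hearts included both the lowest and the highest value. The gene lies at chr9:124101950-124113557 (plus strand). The log2 fold change was 0.09 ± 0.27, with a 95% interval from -0.53 to 0.71 and an adjusted p (limma) of 0.880. It became -0.20 without WT replicate 1, 0.08 without the library labelled KOb/c replicate 2 and -0.02 after the correction for length and GC content. Any difference within that interval is compatible with the values of these hearts.

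Over the 10 genes, limma called 0 at an adjusted p under 0.05, as it did over all genes tested (0.00% called), and edgeR also called 0. At an unadjusted p under 0.05, limma had 3 of 10, all of them lower, against 10.5% of all genes lower and 23.5% in either direction. The same 3 had all KOb/c hearts below all WT hearts, a pattern found in 14.6% of all genes, and 0 had all KOb/c hearts above, against 15.6%. DESeq2 called 3 of 10 lower, against 5.03% of the genes to which it gave an adjusted p. After the correction for length and GC content 2 of 10 were lower at an unadjusted p under 0.05, against 6.69%. Without the library labelled KOb/c replicate 2, 5 of 10 passed that unadjusted threshold, against 20.8% of all genes in the same fit, with *Cd163* and *Lyve1* added on the higher side. The median log2 fold change of the 10 genes was 0.05, beside -0.00 over all genes tested, and 0.02 beside 0.01 after the correction.

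**Figure D4:**
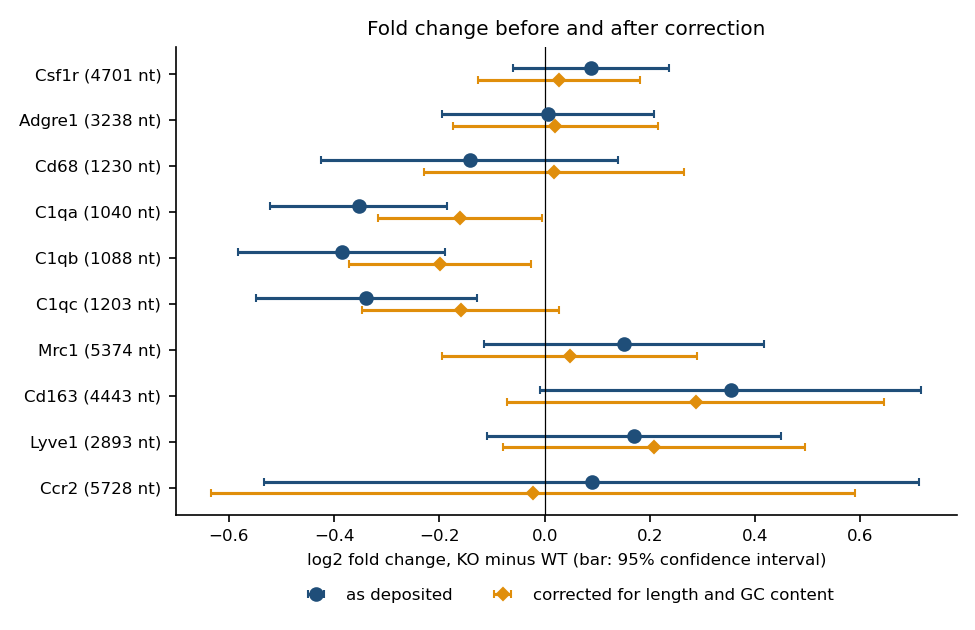
Log2 fold change (KOb/c minus WT) of the 10 macrophage genes as deposited (blue circles) and after correction for transcript length and GC content (orange diamonds), with 95% confidence intervals as bars and transcript lengths in nucleotides beside the symbols. The C1q genes move from between -0.39 and -0.34 to between -0.20 and -0.16, and *Cd68* moves from -0.14 to 0.02.

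A ratio of 2 genes within a library does not depend on the scaling between libraries. The ratio of *C1qa* to *Csf1r* counts was 0.712, 0.773 and 0.700 in KOb/c replicates 1 to 3 and 1.033, 1.029 and 0.910 in WT replicates 1 to 3. The groups did not overlap, and the difference on the log2 scale was -0.44 (exact permutation p = 0.1, adjusted over 8 ratios 0.4). The ratio of *Cd68* to *Csf1r* was 0.109, 0.130 and 0.127 in KOb/c and 0.149, 0.139 and 0.141 in WT hearts, again without overlap, with a difference of -0.23 (exact permutation p = 0.1, adjusted 0.4). These are the smallest p-values that the design allows, and both ratios set a short transcript against the long transcript of *Csf1r*, at 4701 nucleotides. The other ratios to *Csf1r* overlapped between the genotypes, with differences of 0.27 for *Cd163*, 0.08 for *Lyve1*, 0.06 for *Mrc1* and 0.00 for *Ccr2*. Without the library labelled KOb/c replicate 2 the differences were -0.49 for *C1qa*, -0.28 for *Cd68*, 0.43 for *Cd163*, 0.20 for *Lyve1*, 0.02 for *Mrc1* and -0.01 for *Ccr2*. The balance of *Ccr2* and *Lyve1* against *Csf1r*, which sets recruited and resident markers beside a marker of both, thus did not separate the genotypes.

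**Figure D5:**
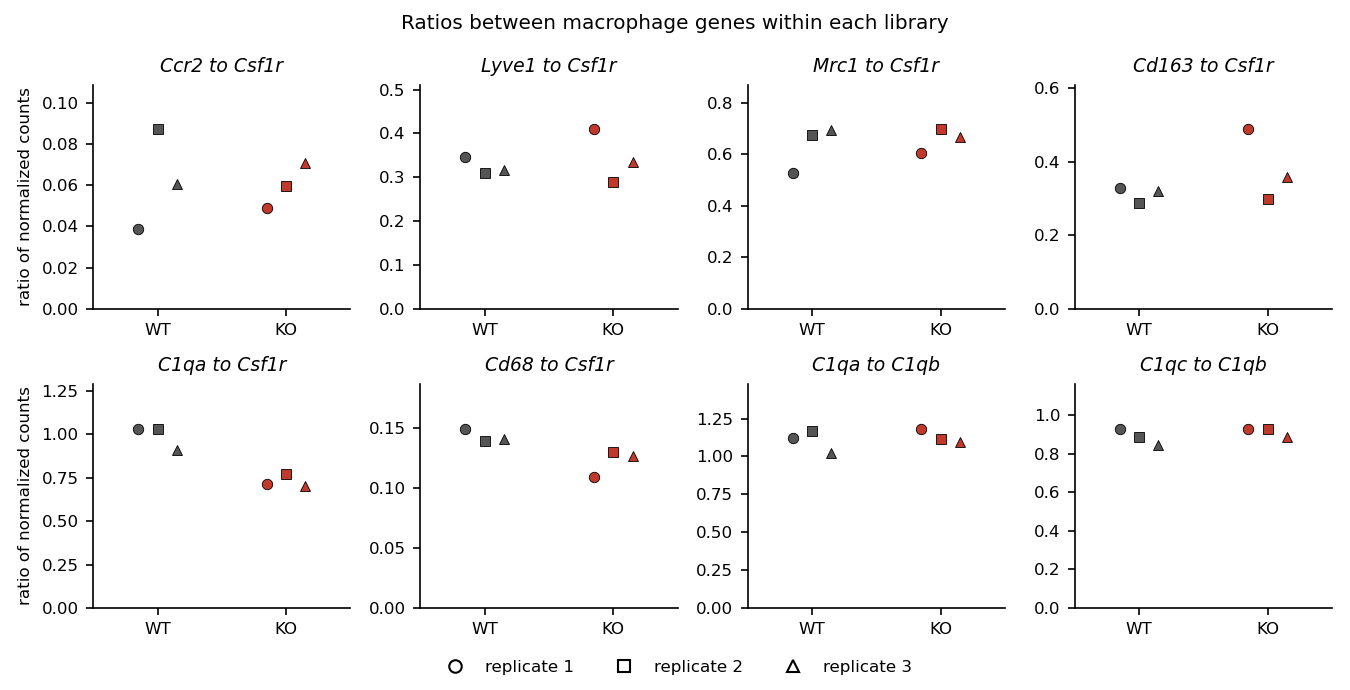
Ratios of normalized counts between macrophage genes in each WT (grey) and KOb/c (red) heart, with the replicate number as the symbol. *C1qa* to *Csf1r* and *Cd68* to *Csf1r* are lower in every KOb/c heart, and the other 6 ratios overlap.

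The 10 genes did not share a single pattern over the 6 hearts. The mean of their centred log2 values ran only from -0.08 in KOb/c replicate 1 to 0.07 in WT replicate 3. The Pearson correlation of a member with that mean, which contains the member itself, was 0.83 for *Cd68*, 0.66 for *C1qb* and -0.52 for *Cd163*, with the other 7 between -0.49 and 0.53. Outside the members, the genes most like the mean over the same 6 libraries were *Gm35339*, *Wfdc17*, a secreted inhibitor made by activated macrophages, and *Tsc22d1*, with correlations of 0.996, 0.992 and 0.992. *Ccl25*, *Gm12359*, *Brd8*, *Hdac7*, *Gorab*, *Dimt1* and *Neat1* followed, down to 0.978. None of these 10 genes was on a list of macrophage or other cell type markers. They were picked as the highest of all genes tested over only 6 libraries, so their correlations are a description and not evidence of a link.

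Another 36 genes shared by tissue macrophages and monocytes were examined as a list. limma called 0 of them at an adjusted p under 0.05. At an unadjusted p under 0.05, 12 were lower and 1 higher, a share of 33.3% lower against 10.5% of all genes, and the median log2 fold change was -0.20. DESeq2 called 5 of the 36 lower, against 5.03% of the genes to which it gave an adjusted p. After the correction for length and GC content, 7 were lower and 1 higher, or 19.4% lower against 6.69%, and the median was -0.12. Without the library labelled KOb/c replicate 2, 13 were lower and 0 higher. Their summed normalized counts were between 22110 and 25716 in KOb/c and between 26205 and 27147 in WT hearts, with no overlap. That sum is weighted towards its few most abundant genes and is not corrected for length.

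The 3 with the lowest p on that list were *Ly86*, *Ctss* and *Tyrobp*. *Ly86*, which encodes the MD-1 partner of a Toll-like receptor relative, was at 122, 155 and 172 normalized counts in KOb/c and at 218, 218 and 279 in WT hearts. Its log2 fold change was -0.67 (adjusted p 0.085, limma), and -0.63 after the correction. *Tyrobp*, the adaptor DAP12 that signals for many myeloid receptors, had -0.60 and -0.40 after the correction, and the lysosomal protease *Ctss* had -0.30 and -0.16. For each of them, all KOb/c hearts were below all WT hearts. The gene higher at an unadjusted p was the transporter *Slco2b1*, at 0.30.

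For the lists that follow, limma called 0 genes, and counts at an unadjusted p under 0.05 stand against 10.5% of all genes lower and 13% higher. After the correction these shares were 6.69% and 7.75%, and without the library labelled KOb/c replicate 2 they were 8.92% and 11.9%. Most lists hold few genes, and a count of 1 or 2 is close to those shares. DESeq2 called 985 genes higher and 602 lower, of 11979 with an adjusted p. On the lists below it called 1 resident gene higher and 1 monocyte gene lower. It called 1 CSF1R gene and 2 C1q partners higher, and 2 genes around the scavenger ligands lower. Of endothelial genes it called 3 higher and 1 lower, and of fibroblast and of cardiomyocyte genes each 2 higher and 1 lower. On the others it called 0.

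Of 14 further genes of resident cardiac macrophages, 12 had negative estimates, and 2 were lower and 2 higher at an unadjusted p under 0.05. The median log2 fold change was -0.14. After the correction 0 were lower and 2 higher, with a median of -0.10, and without the library labelled KOb/c replicate 2 the counts were again 0 and 2, with a median of -0.22. The 3 with the lowest p were the ubiquitin ligase *Wwp1* (0.32, and 0.18 after the correction), the carbonyl reductase *Cbr2* (-0.33 and -0.15) and the leukotriene synthase *Ltc4s* (-0.55 and -0.35). Of 14 genes of blood monocytes and recently recruited macrophages, 1 was lower and 0 higher, with a median of -0.19 and of -0.07 after the correction. The median turned to 0.03 without the library labelled KOb/c replicate 2, and the counts were the same. The gene lower was the fatty acid binding protein *Fabp5*, at 1603, 2059 and 2087 normalized counts in KOb/c and at 3094, 2366 and 2716 in WT hearts. *Ms4a4c* (-0.83) and the tetraspanin *Cd9* (-0.24) were next by p, with overlapping groups.

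On the list of ligands, signalling proteins and transcription factors around CSF1R, 3 of 22 genes were lower and 1 higher at an unadjusted p under 0.05. After the correction 1 was lower and 1 higher, and without the library labelled KOb/c replicate 2, 3 were lower and 2 higher. The medians were -0.07, -0.09 and -0.05 in that order. *Spi1*, which encodes PU.1, was at 231, 265 and 247 normalized counts in KOb/c and at 308, 321 and 297 in WT hearts. All KOb/c hearts were below all WT hearts, with a log2 fold change of -0.32 (adjusted p 0.125, limma) and -0.20 after the correction. *Id3*, an inhibitor of helix-loop-helix factors, had -0.28, and -0.11 after the correction. *Cbl*, the ubiquitin ligase that ends CSF1R signalling, has a transcript of 11372 nucleotides and had 0.38, and 0.12 after the correction.

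Among the partners, targets and inhibitors of C1q, 0 of 19 genes were lower and 4 were higher at an unadjusted p under 0.05, with a median of 0.09. After the correction 0 were lower and 2 higher, with a median of 0.10, and without the library labelled KOb/c replicate 2, 1 was lower and 3 higher, with a median of 0.05. *Lrp1*, a receptor that takes up complexes of C1q and calreticulin, had a log2 fold change of 0.36 and a long transcript, and 0.11 after the correction. *C7*, part of the membrane attack complex, had 0.69, and 0.73 after the correction. *Cd93* had 0.21 and 0.03. The fourth was *Serping1*, the inhibitor of the C1 proteases, at 0.21 and 0.33.

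Of 14 chemokines, CCR2 ligands included, 4 were lower and 1 higher at an unadjusted p under 0.05, with a median of -0.25. After the correction 3 were lower and 0 higher, with a median of -0.10, and the counts were also 3 and 0 without the library labelled KOb/c replicate 2, with a median of -0.21. *Ccl8* was at 4.96, 5.17 and 5.32 normalized counts in KOb/c and at 10.2, 15.6 and 22.7 in WT hearts, a very low level. It reached the mean of 10 needed for testing only through its WT values, so the separation of its groups is not read as a result. *Ccl2*, the main CCR2 ligand, had a log2 fold change of -0.92 with overlapping groups, and *Cxcl12* had 0.30, and 0.17 after the correction. Of 13 genes around the ligands of the scavenger receptors, 3 were lower and 0 higher: the ferritin light chain *Ftl1* (-0.33), the hyaluronidase *Hyal2* (-0.32) and the biliverdin reductase *Blvrb* (-0.30). After the correction 1 was lower, *Hyal2* at -0.27, and 1 higher. Without the library labelled KOb/c replicate 2, 2 were lower and 0 higher. None of 7 genes of MHC class II presentation passed an unadjusted p under 0.05, and those with the lowest p were *H2-DMa* (-0.16), *H2-DMb1* (-0.20) and the transactivator *Ciita* (0.18).

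Markers of other leukocytes did not pass the unadjusted threshold in any of 7 neutrophil, 9 T and NK cell, 7 B cell, 5 dendritic cell and 6 mast cell genes. The T and NK cell sum was the lowest of these, between 170 and 236 normalized counts in KOb/c and between 174 and 364 in WT hearts. The B cell sum was between 683 and 1135 in KOb/c and between 718 and 1706 in WT hearts. The neutrophil sum was between 172 and 690 normalized counts in KOb/c and between 268 and 614 in WT hearts, and *Ly6g*, *Camp* and *Ltf* were not in the table. Among the genes with the lowest p were *Cxcr2*, *S100a9* and *Retnlg* for neutrophils, *Cd3g* and *Cd3d* for T and NK cells, *Blk* and *Cd79a* for B cells, *Zbtb46*, *Itgax* and *Clec9a* for dendritic cells, and *Hdc*, *Cma1* and *Cpa3* for mast cells, and all of these had overlapping groups. Among cells of the heart itself, 3 of 8 endothelial genes were higher and 1 lower at an unadjusted p under 0.05, led by *Vwf* (0.52), *Egfl7* (-0.44) and *Tek* (0.22), and the counts held after the correction. Of 8 fibroblast genes, 2 were higher and 2 lower, led by *Pdgfra* (0.49), *Col1a1* (0.30) and *Dpt* (-0.34), with 2 higher and 1 lower after the correction. Of 8 cardiomyocyte genes, 2 were higher and 0 lower, namely the calcium release channel *Ryr2* (0.61) and the myosin *Myh6* (0.55), with *Myl3* (-0.23) next by p, and 1 was higher after the correction. Of these 8 genes 4 had negative estimates, with a median of -0.00. The groups did not overlap for 2 higher and 3 lower genes, against 15.6% and 14.6% of all genes. The sum of the 8 cardiomyocyte genes was between 2773238 and 3096704 in KOb/c and between 2483848 and 2584687 in WT hearts, a sum set by its few most abundant genes. The sums of 5 adipocyte and 5 erythroid genes varied widely within each genotype, with 525 to 5533 and 1619 to 4087 for the former and 29389 to 133453 and 52272 to 116933 for the latter, in KOb/c and WT hearts in that order. None of their genes passed the unadjusted threshold, those with the lowest p being *Cidec*, *Adipoq* and *Pparg*, and *Hbb-bs*, *Hbb-bt* and *Hba-a1*. The part of tissue composition in the macrophage results was not tested.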

How the data were processed

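Per the labels, total RNA of 6 hearts was sequenced as paired reads. The deposited values are normalized counts (a signal: the authors scaled the reads of a gene by the size factor of its library, not by length). The submitters' processing notes name Trimmomatic 0.36, STAR 2.5.2b, featureCounts of Subread 1.5.2, DESeq2 and the build GRCm38. The annotation and the settings for strand and shared reads are not given in the sources used here. The worth of 1 read was read from the steps between low values, and dividing by it gave whole reads for 100% of values. Every column was matched to a library.

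The main test was limma 3.58.1 in R 4.3.3, two-sided, with 1 added to each normalized count before taking log2 and a trend in the variance. It covered the 16016 genes whose mean was 10 or more, and p-values were adjusted by Benjamini-Hochberg and called under 0.05. Such fold changes understate low genes. edgeR 4.0.16 and DESeq2 1.42.0 were run on the recovered reads, and DESeq2 left 4037 genes without an adjusted p. The correction subtracts splines of 5 degrees of freedom in log2 length and GC content. Other alternatives were pseudocounts of 0.5 and 5, no filter or a mean of 50, rescaling, quantile normalization, no variance trend, a replicate block and omission of single hearts. Positions and lengths are from GENCODE M21, upstream sequences from RefSeq. The procedures were tested on simulated data. Of 100 genes changed by a log2 fold of 1, limma and edgeR each called 68 and DESeq2 67. Of 100 changed by 0.35, limma and edgeR each called 11 and DESeq2 12, so most changes of that size were missed. With a simulated length trend and no other change, limma called 168 genes, and 0 after the length and GC correction.

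Named are the 10 members, the 3 genes of a list with the lowest p where none passed the threshold, *Slc4a4*, the 10 genes most like the members' mean, and *Serping1*, *Slco2b1*, *Ephb2* and *Zbtb40*, which were chosen after their values were seen. Some genes that meet this rule are not reported here. The members and lists were chosen with earlier results of these data known.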

Additional observations from a re-analysis of the deposited data

How the results depend on the processing

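Over all genes, limma called 0, with 3764 at an unadjusted p under 0.05. Without KOb/c replicate 2 it called 3, and leaving out any other heart called 0. edgeR called 0, DESeq2 1587, and DESeq2 with the length and GC correction, added after the data had been seen, 343. Of the macrophage genes, DESeq2 called 3, at log2 fold changes of -0.35 (*C1qa*), -0.38 (*C1qb*) and -0.34 (*C1qc*), and every other alternative called 0. The sign of each C1q gene held under each alternative run. Single omissions gave -0.40 to -0.31 for *C1qa*, -0.44 to -0.31 for *C1qb* and -0.41 to -0.27 for *C1qc*. The correction left 2307 genes at an unadjusted p under 0.05, and 2117 with DESeq2, and leaving out WT replicate 1 left 2455. The causes of these shifts were not tested.

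Signs turned for genes whose groups overlapped. *Adgre1* became -0.066 on rescaling to the same total and -0.0054 on quantile normalization, and ran from -0.059 to 0.053 over single omissions. *Cd68* became 0.018 after the correction, and 0.017 with DESeq2 and the correction. *Ccr2* became -0.022 and -0.056 in these, and ran from -0.20 to 0.33 over omissions. Over omissions the log2 ratio to *Csf1r* ran from -0.30 to 0.28 for *Ccr2*, from -0.049 to 0.20 for *Lyve1* and from -0.063 to 0.13 for *Mrc1*, and that of *C1qa* to *C1qb* from -0.021 to 0.072.

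The labels do not say whether the replicate numbers pair the animals. The numbers in the column names lie far apart for the hearts labelled replicate 1. They lie close together for the other hearts that share a replicate number, and the labels do not explain them. Hearts with the same replicate number had correlations of 0.23, 0.07 and -0.03 in their deviations from the group means. Only KOb/c replicate 1 correlated best with the heart of its own replicate number. With so few hearts these correlations cannot exclude a pairing. With the replicate number as a block, limma called 0 genes and 0 macrophage genes, with adjusted p-values of 0.105, 0.106 and 0.123 for *C1qa*, *C1qb* and *C1qc*. The block left 3924 genes at an unadjusted p under 0.05. Depth limits *Ccr2* most, with a counting error of 10.8% at its lowest count.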
